A study of Homo sapiens with 18 samples.

Results

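The genes described here are 10 amino acid transporters of the plasma membrane, taken by gene symbol from the 17017 genes of the deposited count table. They are SLC3A2, SLC7A5, SLC7A6, SLC7A11, SLC7A1, SLC1A4, SLC1A5, SLC38A1, SLC38A2 and SLC6A9, and each was found as 1 row. The counts come from MDA-MB-231, an established line of triple-negative breast carcinoma, in which fibrillarin (FBL), the methyltransferase that modifies ribosomal RNA under the guidance of small nucleolar RNAs, was depleted. SC is read here as the scrambled hairpin, and SH2 and SH3 are the labels of a pair of hairpins against FBL, which the protocols number as knockdowns without saying which label is which. Per the labels' protocols, cells of all groups carried a lentiviral hairpin vector, were kept under puromycin, then given fresh complete medium (DMEM with foetal serum and insulin), and received cycloheximide, which halts elongating ribosomes, just before lysis. From each treatment there are 3 libraries of cytoplasmic input RNA (IN) and 3 libraries of ribosome footprints (RPF), 18 in all. The labels do not say whether replicates are separate transductions or cultures, so p-values measure the spread between these libraries, which may be technical.

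Mammalian cells take up amino acids through families of transporters that divide the work. SLC3A2 (CD98 heavy chain) is a glycoprotein that carries no substrate itself but brings light chains of the SLC7 family to the cell surface through a disulphide bond. Its light chain SLC7A5 (LAT1) exchanges intracellular glutamine for leucine and other large neutral amino acids, SLC7A6 (y+LAT2) exchanges cationic for neutral amino acids, and SLC7A11 (xCT) imports cystine in exchange for glutamate, which feeds glutathione synthesis. SLC7A1 (CAT1) takes up arginine and lysine without a heavy chain. SLC1A4 and SLC1A5 (ASCT1 and ASCT2) exchange small neutral amino acids, glutamine among them for SLC1A5, and SLC38A1 and SLC38A2 load glutamine and alanine with sodium. SLC6A9 (GlyT1) imports glycine. Many of these genes are known targets of ATF4, the transcription factor induced when amino acids run short, and SLC7A5 and SLC1A5 are known targets of MYC.

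Because ATF4, MYC and NRF2 (the factor of the oxidative stress response, gene NFE2L2) are known to act on genes of this group, the DNA around the transcription starts is shown first, with a search for motifs of these factors. RefSeq (GRCh38.p14) windows of 250 bases before to 50 after each start were matched by symbol for 9 of the 10 transporters, all but SLC7A11. These 9 genes held 15 windows, and a gene with more windows has more chances of a match. The C/EBP-ATF response element, to which ATF4 binds with a C/EBP partner, was searched as TGATGNAAN on both strands. It occurred in windows of 5 of the 9 genes, against 3.61% of all 35116 windows and 4.45% of the 27305 genes with a window. The stretches below are read along each gene's own strand, and capitals mark the motif, which stands reversed in SLC1A4 and SLC3A2.
SLC1A4: gcggctcccgTTTGCATCAtctccagccg
SLC3A2: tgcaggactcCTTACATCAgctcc
SLC38A1: cagacccgaaTGATGAAAAgggatcagct
SLC7A1: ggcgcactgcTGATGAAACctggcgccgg
SLC1A5: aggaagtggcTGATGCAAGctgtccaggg
The windows are chr2:64989149-64989448 on the plus strand for SLC1A4, chr11:62881449-62881748 on the plus strand for SLC3A2, chr12:46266467-46266766 on the minus strand for SLC38A1, chr13:29595639-29595938 on the minus strand for SLC7A1 and chr19:46784765-46785064 on the minus strand for SLC1A5. Counted from the first transcribed base, the motif began 8 bases before it in SLC1A4, 4 before in SLC38A1 and 97 before in SLC1A5. In SLC3A2 the motif began 37 bases after the start and in SLC7A1 8 bases after it. Of these 5 genes, SLC3A2 rose and SLC1A4, SLC38A1 and SLC7A1 fell in RNA with both hairpins, as given below.

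The E-box CACGTG, the palindromic site of MYC and its partner MAX, was found in windows of 2 of the 9 genes, against 7.26% of all windows and 8.77% of genes. The core of the antioxidant response element (searched as TGACNNNGC on both strands), the site of NRF2, was found in 5 of the 9, against 13.3% of windows and 16.1% of genes. E-boxes lay 130 bases before the start of SLC7A5 and 50 before a second start of SLC1A5, in the window chr19:46787244-46787543 on the minus strand. Antioxidant cores began 37 bases before the start of SLC3A2, 2 before that of SLC7A5 and 85 before that of SLC7A1. In SLC7A6 they began 197 and 29 bases before the start, and in SLC1A5 111 before the second start. Apart from SLC3A2, none of these genes was called higher in RNA with either hairpin. Capitals again mark the motif in the E-box stretches of both genes and in the antioxidant core of SLC3A2.
SLC7A5 E-box: ccggacgacgCACGTGctccgagctg
SLC1A5 E-box: cgggagtggtCACGTGgacaggacgg
SLC3A2 antioxidant core: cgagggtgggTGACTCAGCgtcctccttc
The 250 bases upstream of SLC7A5, which fell with both hairpins in RNA and footprints, are given whole with the E-box in capitals (chr16:87869508-87869757, minus strand). Its antioxidant core runs past the start, beyond these bases, and is not marked.
SLC7A5 upstream: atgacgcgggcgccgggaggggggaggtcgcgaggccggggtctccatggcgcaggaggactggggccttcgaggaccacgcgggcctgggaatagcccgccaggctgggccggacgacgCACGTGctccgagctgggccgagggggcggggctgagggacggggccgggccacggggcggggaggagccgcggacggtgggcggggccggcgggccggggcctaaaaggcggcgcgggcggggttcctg
A match is a description of the letters and says nothing on binding in these cells.

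IN libraries held 23469830 to 27629488 counts and RPF libraries 1662705 to 6098648, so footprint values rest on fewer counts. Levels below are counts scaled to library size by TMM (edgeR's CPM), and fold changes come from edgeR's quasi-likelihood test over all genes, called at an adjusted p under 0.05. The 10 transporters together took 0.159% to 0.177% of the IN counts and 0.208% to 0.335% of the RPF counts, and all 10 passed the filter on low counts. FBL RNA stood at 395, 349 and 421 CPM in SC, 1.26, 4.52 and 11.2 CPM in SH2 and 3.36, 4.15 and 2.95 CPM in SH3, with the largest remainder in SH2 replicate 3. In RNA, the line's own genes (VIM, CD44, EGFR and AXL) summed to 6470 to 9574 CPM, most of it VIM. Singly they were not stable. Means in SC, SH2 and SH3 were 5579, 6581 and 4704 CPM for VIM and 316, 507 and 336 CPM for CD44. For EGFR they were 197, 912 and 615 CPM, and for AXL 1487, 872 and 1289 CPM. The genes this line lacks (ESR1, PGR and CDH1) stayed under 1 CPM in sum. The markers PAX2 and NEFL of the packaging line HEK-293T summed to at most 0.04 CPM in RNA, and its marker LIN28B was not analysed here. RNA of PTPRC and PECAM1, of blood and endothelial cells, summed to 3.55 to 4.66 CPM in SC, 2.84 to 3.88 CPM in SH2 and 1.23 to 2.40 CPM in SH3, and its part in the results was not tested. As the libraries are bulk, fewer cells with a transcript and less of it per cell cannot be told apart. Footprint libraries stood apart in these genes: SC replicate 1 was the lowest of the 3 SC libraries in 10 of 10 transporters, and SH2 replicate 1 the lowest of its group in 9 of 10. Over all genes tested those shares were 36.3% and 35.6%. In RNA, SC replicate 1 was the highest of the 3 SC libraries in 8 of 10 transporters, against 37.8% of all genes. Calls that end without SC replicate 1 are named where they occur. Reads that RefSeq's pseudogenes SLC7A5P1 and SLC7A5P2 share with SLC7A5, and the overlapping or antisense genes SLC7A5-AS1, SLC7A11-AS1, SLC38A2-AS1 and SLC7A6OS, make the counts of those transporters uncertain, since the handling of shared reads and strand is not given in the sources used here.

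The comparison of each hairpin with SC asks which transporters change in RNA, and then in ribosome occupancy, after FBL is depleted. In RNA, 9 of the 10 transporters were called with SH2, 2 higher and 7 lower, where 61.4% of all 12710 genes tested were called (31.1% higher, 30.4% lower). With SH3, 7 of the 10 were called, 1 higher and 6 lower, against 53.0% of all genes (27.8% higher, 25.2% lower). SLC3A2 rose with both hairpins, SLC7A5, SLC7A11, SLC7A1, SLC1A4 and SLC38A1 fell with both, and none was called in opposite directions. The median log2 change of the 10 was -0.54 with SH2 and -0.31 with SH3, beside 0.012 and 0.034 over all genes. In footprints, 5 of the 10 were called with SH2, 2 higher and 3 lower, against 44.2% of all 10345 genes tested (21.0% higher, 23.2% lower). With SH3 5 were called, all lower, against 35.9% of all genes (16.9% higher, 19.0% lower). SLC7A5 and SLC1A4 were the transporters lower in footprints with both hairpins. The median footprint change was -0.26 with SH2 and -0.60 with SH3, beside -0.0042 and -0.014 over all genes. The SH2 footprint count lay near the share over all genes. Libraries of hairpin and SC did not overlap in RNA for 9 of 10 transporters with SH2 (64.3% of all genes) and 7 of 10 with SH3 (62.9%), and in footprints for 1 of 10 with SH2 (51.3%) and 6 of 10 with SH3 (46.5%). Both hairpins were set against the same SC libraries, so the comparisons are not independent. Same-numbered SC and SH2 libraries deviated together, so for SH2 against SC the calls that a block by replicate number changes are given below.

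**Figure D1:**
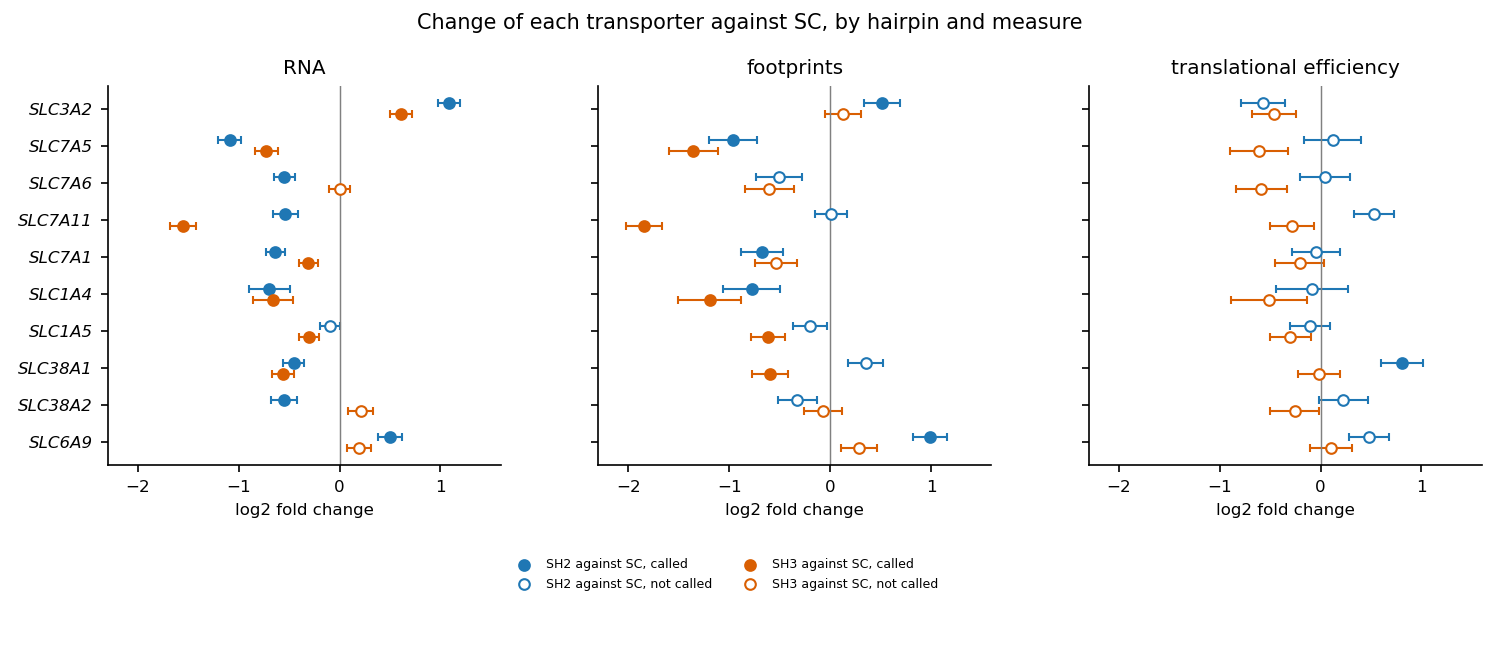
Log2 fold change against SC (x axis) of each transporter (y axis) in RNA, footprints and translational efficiency, for SH2 (blue) and SH3 (orange). Bars are standard errors, filled points passed an adjusted p of 0.05 and open points did not. SLC3A2 is the only transporter to the right of 0 in RNA with both hairpins and filled in both, and the filled SH3 footprint points all lie left of 0.

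SLC3A2, the heavy chain, was the transporter whose RNA increased most. Its RNA stood at 319.7, 258 and 287 CPM in the 3 SC libraries, at 616, 551 and 666 CPM in SH2 and at 407, 479 and 433 CPM in SH3. The 3 groups did not overlap, with SH2 highest and SC lowest. RNA rose 2.12-fold with SH2 (log2 change 1.09, SE 0.11, edgeR adjusted p 1.76e-06) and 1.53-fold with SH3 (log2 change 0.61, SE 0.11, edgeR adjusted p 0.000356). Its footprints stood at 550.4, 965 and 816 CPM in SC, 913, 1274 and 1141 CPM in SH2 and 797, 924 and 828 CPM in SH3. Here SC overlapped SH2 and spanned SH3, with replicate 1 lowest and replicate 2 highest of the SC libraries. Footprints rose with SH2 by 0.52 (SE 0.18, edgeR adjusted p 0.0279) on the log2 scale, a call that was lost without SC replicate 1 (0.32, edgeR adjusted p 0.0897), without SH2 replicate 2 (0.41, edgeR adjusted p 0.114) or without SH2 replicate 3 (0.51, edgeR adjusted p 0.0718). With SH3 the footprint value was 0.13 (SE 0.18, edgeR adjusted p 0.602), not called, with a 95% interval of -0.25 to 0.51.

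SLC7A5, the large neutral amino acid light chain, fell in RNA and in footprints with both hairpins. Its RNA stood at 489, 386 and 450.0 CPM in SC, 193, 192 and 239 CPM in SH2 and 278, 268 and 254 CPM in SH3, so all 6 knockdown libraries lay below the lowest SC library. RNA fell 2.13-fold with SH2 (log2 change -1.09, SE 0.11, edgeR adjusted p 2.36e-06) and 1.65-fold with SH3 (log2 change -0.73, SE 0.11, edgeR adjusted p 0.00012). Footprints stood at 253, 451 and 469.7 CPM in SC, 138, 197 and 266 CPM in SH2 and 135, 140.0 and 182 CPM in SH3. The SH2 footprints overlapped SC only through SC replicate 1, and the SH3 footprints lay below all 3 SC libraries. The footprint changes were -0.96 (SE 0.24, edgeR adjusted p 0.00379) with SH2 and -1.36 (SE 0.24, edgeR adjusted p 0.000509) with SH3, both called also when any 1 of the libraries was left out.

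SLC7A6, the light chain that exchanges cationic for neutral amino acids, fell in RNA with SH2 and stood at the SC level with SH3. RNA stood at 36.9, 31.6 and 33.5 CPM in SC, 23.4, 21.4 and 24.999 CPM in SH2 and 36.4, 32.5 and 33.3 CPM in SH3. SH2 lay below both other groups, which overlapped. The RNA change was -0.55 (SE 0.11, edgeR adjusted p 0.000493) with SH2 and 0.00 (SE 0.10, edgeR adjusted p 0.991) with SH3, the latter with a 95% interval of -0.22 to 0.23. Footprints were 23.1, 36.2 and 31.2 CPM in SC, 14.8, 25.9 and 21.0 CPM in SH2 and 21.7, 15.1 and 22.4 CPM in SH3. Neither footprint change was called with all libraries, at -0.51 (SE 0.23, edgeR adjusted p 0.0882) with SH2 and -0.60 (SE 0.24, edgeR adjusted p 0.063) with SH3. With the replicate number as a block the SH2 value was called (-0.52, edgeR adjusted p 0.0494). Without SC replicate 1 both were (-0.67, edgeR adjusted p 0.0258 with SH2, -0.76, edgeR adjusted p 0.0188 with SH3).

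SLC7A11, the cystine importer, held the largest change of the 10 transporters, in SH3. Its RNA stood at 36.3, 44.4 and 40.0 CPM in SC, 24.99, 30.0 and 28.3 CPM in SH2 and 15.6, 11.8 and 13.8 CPM in SH3, with no overlap between any of the 3 groups. RNA fell 1.45-fold with SH2 (log2 change -0.54, SE 0.12, edgeR adjusted p 0.00183) and 2.94-fold with SH3 (log2 change -1.55, SE 0.13, edgeR adjusted p 8.09e-07). Footprints stood at 60.6, 70.8 and 85.6 CPM in SC, 66.7, 68.5 and 82.9 CPM in SH2 and 21.1, 20.2 and 19.3 CPM in SH3, the last from 36 to 59 counts per library. The SH2 footprints lay within the SC range, and all 3 SH3 libraries lay far below it. Footprints fell 3.59-fold with SH3 (log2 change -1.84, SE 0.18, edgeR adjusted p 3.33e-06), while with SH2 the change was 0.01 (SE 0.16, edgeR adjusted p 0.978), with a 95% interval of -0.33 to 0.34.

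**Figure D2:**
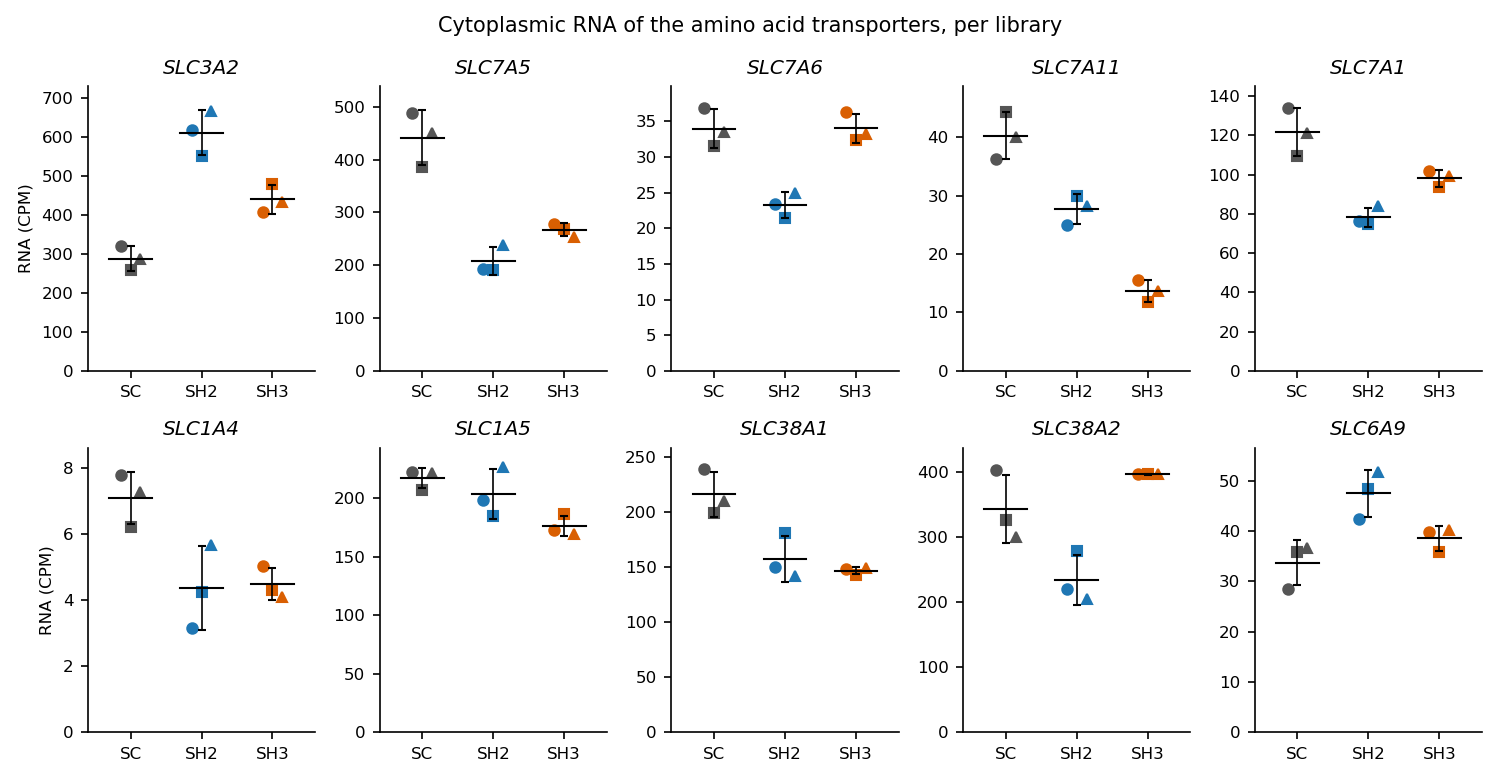
RNA level in CPM (y axis) of each transporter in SC (grey), SH2 (blue) and SH3 (orange); circles, squares and triangles are replicates 1, 2 and 3, the line is the mean and the bar the SD (n = 3). SLC3A2 rises and SLC7A5 falls in both hairpin groups, and SLC7A11 is lowest in SH3 at 11.8 to 15.6 CPM.

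Since the heavy chain works in a dimer with the light chains, the count of SLC3A2 was divided by the summed counts of its light chains in each library. The sum held SLC7A5, SLC7A6, SLC7A7, SLC7A8 and SLC7A11; SLC7A10 was not analysed here. Counts were not divided by length, so the level of this ratio is not a number of proteins, and the ratio is to be compared only between groups. In RNA the ratio was 0.567, 0.557 and 0.547 in SC, 2.55, 2.26 and 2.28 in SH2 and 1.23, 1.53 and 1.44 in SH3. The groups did not overlap, and the means were 0.557 ± 0.0103, 2.36 ± 0.159 and 1.40 ± 0.154 (SD, n = 3 each). In footprints it was 1.63, 1.72 and 1.39 in SC, 4.15, 4.36 and 3.08 in SH2 and 4.49, 5.27 and 3.69 in SH3. Every knockdown library lay above every SC library, with means of 1.58 ± 0.172, 3.86 ± 0.686 and 4.49 ± 0.787 (SD, n = 3 each). The footprint ratio was thus 2.43-fold higher with SH2 and 2.82-fold higher with SH3 (mean log2 differences 1.28 and 1.497). In a two-sided exact permutation test each had p = 0.1, the smallest that 3 against 3 libraries allow, and 0.1 after adjustment over the 4 ratio tests run. Log2 differences of the RNA ratio were 2.08 and 1.32, with the same exact p = 0.1.

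Within the light chain footprints, the SLC7A11 share lay above SC in SH2 and below it in SH3. SLC7A11 supplied 15.0 ± 2.71% of these footprints in SC, 25.4 ± 4.30% in SH2 and 10.7 ± 1.80% in SH3 (mean ± SD of 3 libraries), and no 2 groups overlapped. SLC7A5 supplied 78.4 ± 2.98% in SC, 67.3 ± 4.49% in SH2 and 79.0 ± 2.76% in SH3. The share of SLC7A6 was 6.20 ± 0.792% in SC, 7.09 ± 1.61% in SH2 and 10.3 ± 1.82% in SH3. These shares are parts of 1 whole and were not tested.

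**Figure D3:**
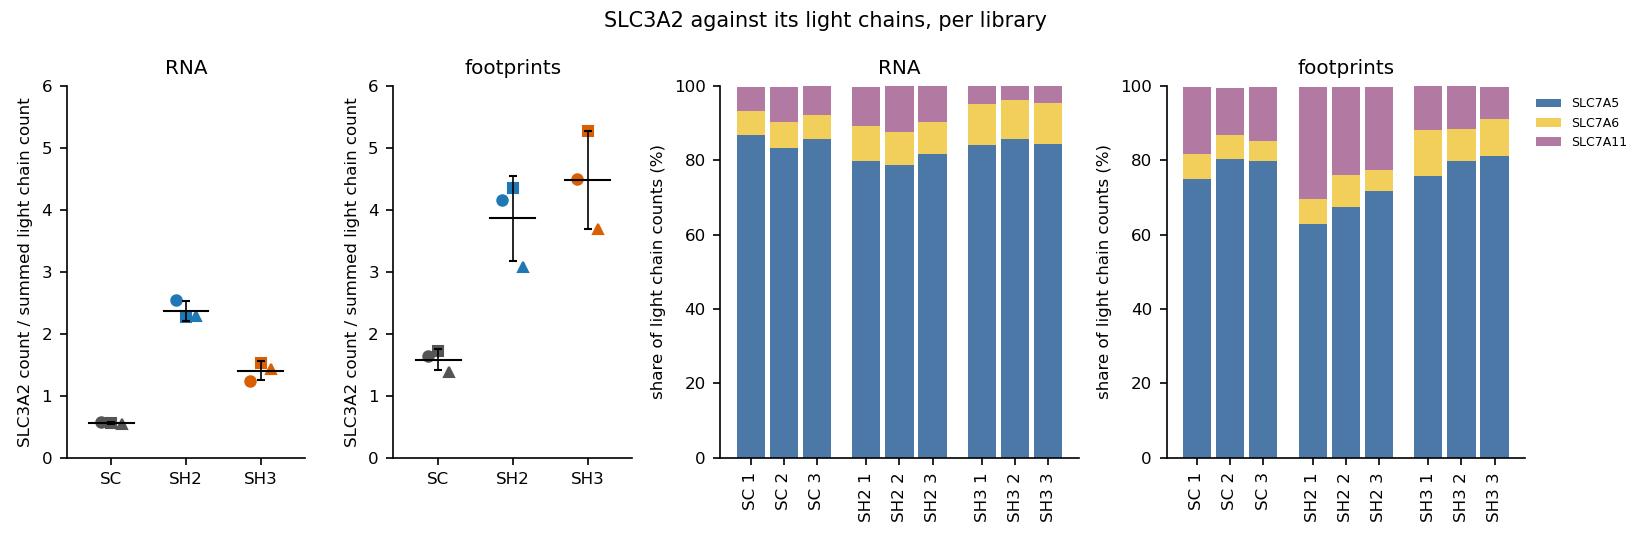
Left, SLC3A2 count over the summed light chain counts (y axis) in RNA and in footprints for SC (grey), SH2 (blue) and SH3 (orange), with replicates 1, 2 and 3 as circles, squares and triangles, the mean as a line and the SD as a bar (n = 3). Right, the share of light chain counts (%) held by SLC7A5, SLC7A6 and SLC7A11 in each library; SLC7A7 and SLC7A8, at or under 0.600% in each, are left off. The ratio of every knockdown library exceeds that of every SC library, and the SLC7A11 share is highest in SH2 footprints.

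SLC7A1, the arginine and lysine transporter, fell in RNA with both hairpins. Its RNA stood at 134, 109.6 and 121 CPM in SC, 76.3, 74.8 and 83.8 CPM in SH2 and 102, 93.6 and 99.1 CPM in SH3. SH2 was lowest, SH3 lay between, and the 3 groups did not overlap. The RNA change was -0.64 (SE 0.10, edgeR adjusted p 7.05e-05) with SH2 and -0.31 (SE 0.10, edgeR adjusted p 0.0154) with SH3, where the call was lost without SC replicate 1 (-0.25, edgeR adjusted p 0.0526). Footprints were 147, 264 and 247 CPM in SC, 101, 162 and 146 CPM in SH2 and 145, 144 and 163 CPM in SH3, and SC replicate 1 fell within both knockdown groups. The SH2 footprint change of -0.68 (SE 0.20, edgeR adjusted p 0.0136) was called but not without SC replicate 3 (-0.57, edgeR adjusted p 0.0636) or SH2 replicate 1 (-0.49, edgeR adjusted p 0.0804). The SH3 value was -0.54 (SE 0.21, edgeR adjusted p 0.0523), and without SC replicate 1 it was called (-0.75, edgeR adjusted p 0.00205).

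Among the small neutral amino acid exchangers, SLC1A4 was a low-count gene, with 10 to 96 footprint counts per library. Its RNA was 7.80, 6.22 and 7.28 CPM in SC, 3.18, 4.25 and 5.69 CPM in SH2 and 5.04, 4.32 and 4.10 CPM in SH3, and fell by 0.69 with SH2 (SE 0.20, edgeR adjusted p 0.00809) and by 0.66 with SH3 (SE 0.20, edgeR adjusted p 0.013) on the log2 scale. Neither group overlapped SC. Footprints were 10.2, 19.8 and 17.0 CPM in SC, 5.92, 10.5 and 9.71 CPM in SH2 and 5.85, 7.53 and 6.31 CPM in SH3. The footprint change was -1.19 (SE 0.31, edgeR adjusted p 0.00726) with SH3 and -0.78 (SE 0.28, edgeR adjusted p 0.0349) with SH2. The SH2 call was lost without SC replicate 2 (-0.61, edgeR adjusted p 0.0926), SC replicate 3 (-0.68, edgeR adjusted p 0.124), SH2 replicate 1 (-0.58, edgeR adjusted p 0.139) or SH2 replicate 3 (-0.83, edgeR adjusted p 0.0629), and it was also lost when SH2 and SC were fitted alone (-0.77, edgeR adjusted p 0.0566) or RPF libraries were thinned to the smallest total (-0.77, edgeR adjusted p 0.0841).

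SLC1A5, the glutamine exchanger, fell with SH3 in RNA and footprints and was called in neither with SH2. Its RNA was 223, 207 and 222 CPM in SC, 199, 185 and 227 CPM in SH2 and 173, 186 and 169.9 CPM in SH3. SH2 overlapped SC and SH3 lay below it. With SH2 the RNA value was -0.10 (SE 0.10, edgeR adjusted p 0.399), not called, with a 95% interval of -0.30 to 0.11; with SH3 it was -0.30 (SE 0.10, edgeR adjusted p 0.0159), a call lost without SC replicate 3 (-0.29, edgeR adjusted p 0.0554) or without the third SH3 replicate (-0.31, edgeR adjusted p 0.0504). Footprints were 326, 428 and 429 CPM in SC, 248, 395 and 387 CPM in SH2 and 249.97, 259 and 262 CPM in SH3. All 3 SH3 libraries lay below SC, and the footprint change with SH3 was -0.62 (SE 0.17, edgeR adjusted p 0.0104). The SH2 footprint value was -0.20 (SE 0.17, edgeR adjusted p 0.364).

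SLC38A1, a sodium-coupled glutamine and alanine carrier, fell in RNA with both hairpins. Its RNA was 239, 199 and 211 CPM in SC, 150.0, 182 and 142 CPM in SH2 and 148, 143 and 149 CPM in SH3, and every knockdown library lay below SC. The RNA change was -0.45 (SE 0.11, edgeR adjusted p 0.00208) with SH2 and -0.56 (SE 0.11, edgeR adjusted p 0.000613) with SH3. Its footprints were 148, 253 and 200.4 CPM in SC, 216, 297 and 249.6 CPM in SH2 and 139, 131 and 128 CPM in SH3. SH3 lay below SC, and SH2 overlapped SC. The footprint value with SH2 was 0.35 (SE 0.17, edgeR adjusted p 0.113), not called, but with the replicate number as a block it was (0.36, edgeR adjusted p 0.0483). SH2 exceeded the same-numbered SC library in 3 of 3. The footprint value was -0.59 (SE 0.18, edgeR adjusted p 0.0169) with SH3, a call lost without SC replicate 2 (-0.39, edgeR adjusted p 0.0723), the second SH3 replicate (-0.58, edgeR adjusted p 0.0605) or the third SH3 replicate (-0.56, edgeR adjusted p 0.0628).

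SLC38A2, the related carrier that amino acid shortage is known to induce, fell in RNA with SH2, at a log2 change of -0.55 (SE 0.13, edgeR adjusted p 0.00186), from 403, 326 and 301 CPM in SC to 221, 278 and 204 CPM. With SH3 it stood at 397, 398 and 397 CPM, within the SC range, and was not called (0.21, edgeR adjusted p 0.18); without SC replicate 1 it was called as higher (0.32, edgeR adjusted p 0.0353). Footprints were 513, 996 and 599 CPM in SC, 569.5, 575 and 533 CPM in SH2 and 605, 753 and 643 CPM in SH3. SC replicate 2 was far above the other SC libraries. Neither footprint value was called (-0.33, edgeR adjusted p 0.18 with SH2, -0.07, edgeR adjusted p 0.8 with SH3), and without SC replicate 1 the SH2 value was called as lower (-0.50, edgeR adjusted p 0.0237).

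SLC6A9, the glycine transporter, was the other gene besides SLC3A2 to rise with SH2. Its RNA was 28.5, 35.9 and 36.7 CPM in SC, 42.5, 48.3 and 51.8 CPM in SH2 and 39.8, 35.8 and 40.2 CPM in SH3. SH2 lay above both other groups. The RNA rose with SH2 by 0.50 (SE 0.12, edgeR adjusted p 0.00222) and was not called with SH3 (0.20, edgeR adjusted p 0.178). In footprints it stood at 28.4, 29.5 and 38.2 CPM in SC, 57.4, 61.8 and 72.8 CPM in SH2 and 35.1, 37.3 and 44.9 CPM in SH3. SLC6A9 was the single transporter whose SH2 and SC footprints did not overlap, 1 of 10 where 51.3% of all genes did not, and it rose 1.99-fold there (log2 change 0.99, SE 0.17, edgeR adjusted p 0.000272), while SH3 was not called (0.29, edgeR adjusted p 0.225).

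**Figure D4:**
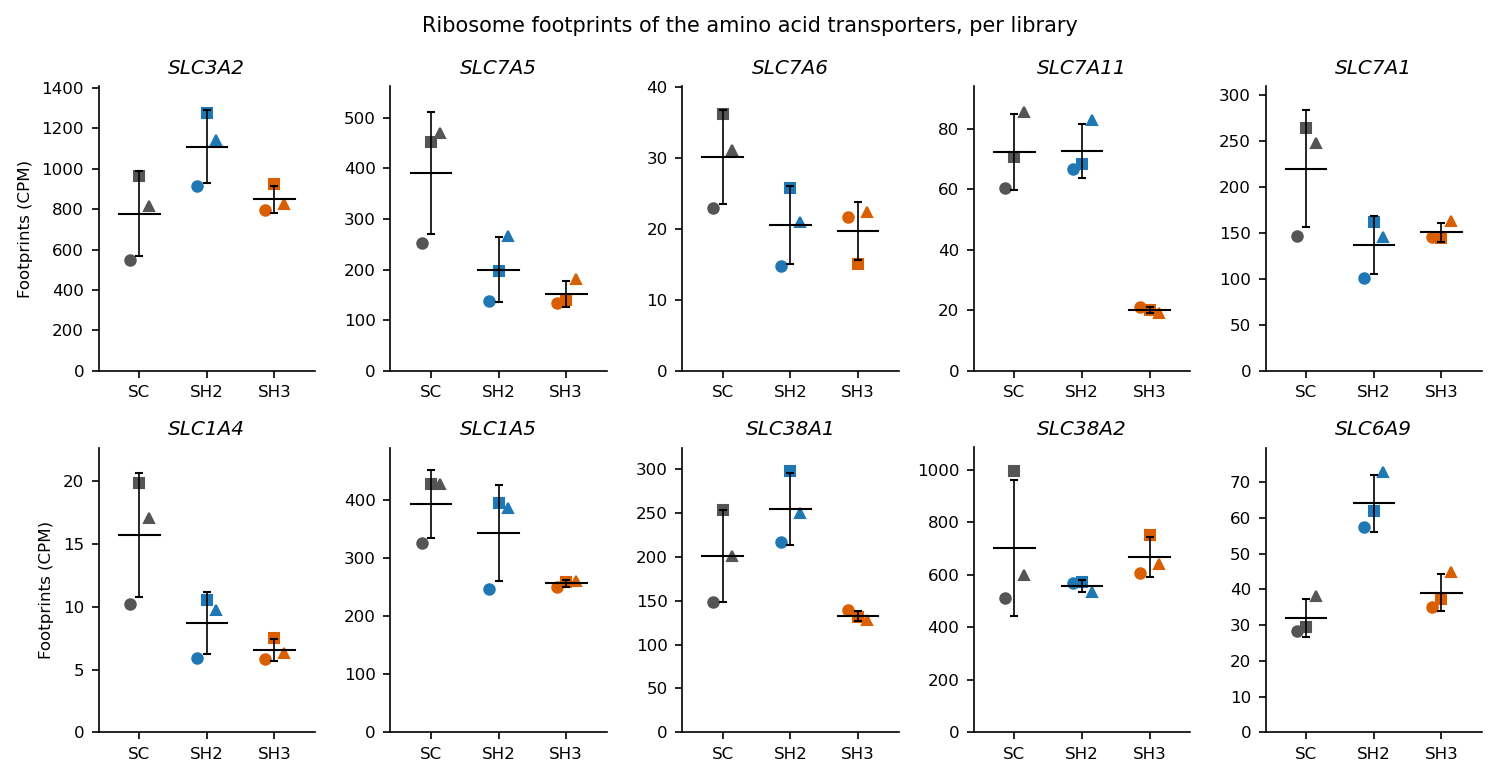
Footprint level in CPM (y axis) of each transporter in SC (grey), SH2 (blue) and SH3 (orange); circles, squares and triangles are replicates 1, 2 and 3, the line is the mean and the bar the SD (n = 3). The circle of SC, replicate 1, is the lowest SC point in each panel, and SLC7A11 in SH3 lies at 19.3 to 21.1 CPM.

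Translational efficiency, the change of footprints relative to the change of RNA, was tested in 1 model over all 18 libraries. With SH2, 1 of the 10 transporters was called, SLC38A1, against 3.90% of the 12531 genes tested (1.44% higher, 2.46% lower). The model compares group means and matches no IN with an RPF library. Per the labels' protocols part of each lysate became input and the rest footprints, but the labels do not say that a number marks 1 lysate. Deviations of same-numbered IN and RPF libraries correlated at -0.435 and -0.400 for SC replicates 1 and 2 and at -0.264 and -0.285 for SH2 replicates 1 and 2, against 0.409 to 0.502 when 1 was set against 2. In the other 5 same-numbered matches the correlation was 0.186 to 0.416, so ratios by number are a description only. The footprint over RNA ratio of SLC38A1, by number, was 0.619, 1.27 and 0.952 in SC, 1.44, 1.64 and 1.76 in SH2 and 0.935, 0.915 and 0.856 in SH3. Over all 9 matches of an IN with an RPF library the ratio was 0.619 to 1.27 in SC, 1.19 to 2.09 in SH2 and 0.856 to 0.970 in SH3, so SH2 and SC overlapped slightly and SH3 lay within SC. The efficiency change was 0.80 (SE 0.21, edgeR adjusted p 0.0331), and the call was lost when SC and SH2 were fitted alone (0.80, edgeR adjusted p 0.099), with a block that takes same-numbered IN and RPF libraries to share a lysate (0.82, edgeR adjusted p 0.0742), with RPF libraries thinned to the smallest total (0.76, edgeR adjusted p 0.0638) and in 5 of the 6 fits that left out the IN and RPF libraries of 1 number, the highest adjusted p being without SH2 replicate 3 (0.75, edgeR adjusted p 0.152). Over all matches the ratio of SLC7A11 was 1.36 to 2.36 in SC, 2.23 to 3.32 in SH2 and 1.24 to 1.79 in SH3, and that of SLC6A9 was 0.775 to 1.34, 1.11 to 1.71 and 0.873 to 1.25 in the same order. SLC7A11, SLC3A2 and SLC6A9 were not called, at 0.53 (edgeR adjusted p 0.141), -0.57 (edgeR adjusted p 0.158) and 0.48 (edgeR adjusted p 0.206). SLC3A2 was called as lower with the replicate number as a block (-0.56, edgeR adjusted p 0.0449), which brings the calls to 2, and without SC replicate 1 (-0.84, edgeR adjusted p 0.0203).

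With SH3 none of the 10 was called in translational efficiency by edgeR, against 0.686% of all genes (0.375% higher, 0.311% lower), and none by the DESeq2 Wald test. At an unadjusted p under 0.05 (edgeR) there were 3, SLC7A5, SLC3A2 and SLC7A6, at log2 values of -0.61, -0.46 and -0.59. The share of all genes at that unadjusted threshold was not counted, so these 3 are not read as a result. Between SH2 and SH3 edgeR called none, against 0.0160% of all genes. There were 4 at an unadjusted p under 0.05, again with no share over all genes to set beside them. SLC7A11 stood at 0.81 (edgeR adjusted p 0.143) and SLC38A1 at 0.82 (edgeR adjusted p 0.121), and the DESeq2 Wald test called both (adjusted p 0.0408 and 0.0279).

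**Figure D5:**
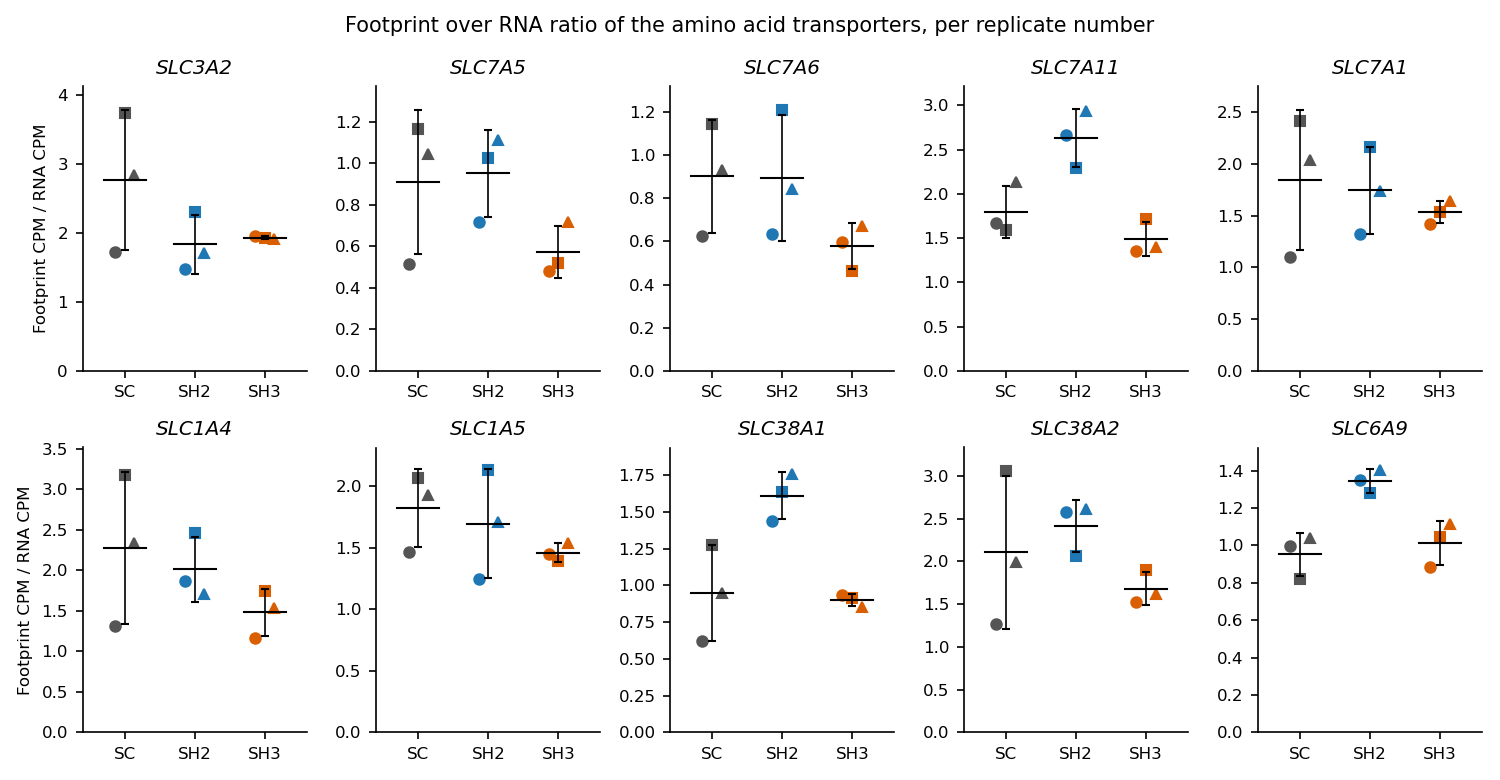
Footprint CPM over RNA CPM (y axis) of each transporter in SC (grey), SH2 (blue) and SH3 (orange); circles, squares and triangles are replicates 1, 2 and 3, the line is the mean and the bar the SD (n = 3). For SLC38A1 the 3 SH2 points, at 1.44 to 1.76, lie above those of SC and SH3; IN and RPF libraries are matched by number, which the labels do not tie to a lysate.

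The hairpins were also tested against each other, which asks where the same target gave different transporter levels. The contrast uses no SC mean, but the SC libraries were in the fit and entered its spread, filter and scaling. In RNA, 6 of the 10 differed, 2 higher and 4 lower in SH2, against 39.3% of all genes (18.9% higher, 20.4% lower). SLC7A11 was higher in SH2, at a log2 difference of 1.02 (SE 0.13, edgeR adjusted p 4.09e-05) and so was SLC3A2, at 0.48 (SE 0.11, edgeR adjusted p 0.00347). Lower in SH2 than in SH3 were SLC38A2 at a log2 difference of -0.76 (SE 0.13, edgeR adjusted p 0.000413), SLC7A6 at -0.55 (SE 0.11, edgeR adjusted p 0.00114), SLC7A5 at -0.36 (SE 0.11, edgeR adjusted p 0.0207) and SLC7A1 at -0.33 (SE 0.10, edgeR adjusted p 0.0163). The SLC7A5 call was lost without any 1 of SH2 replicates 1 and 2 or SH3 replicates 1, 2 and 3, and the SLC7A1 call without SH2 replicate 2 or SH3 replicate 1 or 3. In footprints 3 differed, against 23.8% of all genes (12.1% higher, 11.6% lower), each higher in SH2: SLC7A11 by 1.85 (SE 0.18, edgeR adjusted p 6.2e-06), SLC38A1 by 0.95 (SE 0.18, edgeR adjusted p 0.0014) and SLC6A9 by 0.70 (SE 0.18, edgeR adjusted p 0.00871). SLC7A11 footprints were 3.61-fold higher in SH2 than in SH3. Footprint libraries of the hairpins did not overlap for 4 of 10 transporters, against 42.0% of all genes.

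Other genes that handle amino acids were read from the same tests. Of 13 other amino acid transporters of the plasma membrane with enough RNA counts, 2 rose and 6 fell with SH2, and 1 rose and 7 fell with SH3. The 8 called with each hairpin stand beside 61.4% and 53.0% of all genes, which is near the share over all genes with SH2. SLC7A2, a further arginine and lysine carrier, stood at 26.9 ± 2.20 CPM in SC RNA, 8.41 ± 3.49 CPM in SH2 and 4.23 ± 0.550 CPM in SH3 (mean ± SD of 3 libraries), and changed by -1.68 (edgeR adjusted p 1.49e-05) and -2.67 (edgeR adjusted p 1.11e-06). SLC1A7, a glutamate transporter, and SLC7A7, another light chain of SLC3A2, were called lower as well. The changes were -1.496 (edgeR adjusted p 0.00897) and -2.56 (edgeR adjusted p 0.00083) for SLC1A7. For SLC7A7 they were -1.12 (edgeR adjusted p 0.0428) and -2.26 (edgeR adjusted p 0.00243). Both were low-count genes, with 3 to 44 RNA counts per library for SLC1A7 and 3 to 41 for SLC7A7. In RNA of both genes SH2 overlapped SC, and SH3 lay below SC. Mean RNA levels of both genes were highest in SC, so the filter on low counts may have admitted them through the SC libraries. A gene admitted that way can be called lower but hardly higher, so the direction of these calls is not read as a result. Of 15 genes of the amino acid starvation response, 8 rose and 6 fell in RNA with SH2, and 5 rose and 6 fell with SH3; in footprints 2 rose and 6 fell with SH2, and 2 rose and 4 fell with SH3. Over all genes 31.1% rose and 30.4% fell in RNA with SH2, 27.8% and 25.2% with SH3, and in footprints 21.0% and 23.2% with SH2, 16.9% and 19.0% with SH3. SESN2, a leucine sensor that ATF4 induces, rose in RNA by 1.41 (edgeR adjusted p 3.97e-06) and 1.77 (edgeR adjusted p 1.33e-06), and ATF3, a stress-induced transcription factor, rose by 1.90 (edgeR adjusted p 1.58e-06) and 1.28 (edgeR adjusted p 8.7e-05). NUPR1, a stress-induced chromatin protein, changed by -1.21 (edgeR adjusted p 0.000586) and -1.04 (edgeR adjusted p 0.00226), both lower. Of 11 genes of glutathione synthesis and cystine use, 2 rose and 3 fell in RNA with SH2, and 1 rose and 2 fell with SH3, both totals under the share called over all genes. CTH was called higher in RNA with both hairpins, by 0.70 with SH2 and 0.58 with SH3. TXNRD1, a thioredoxin reductase, fell with both, at -1.81 (edgeR adjusted p 1.39e-08) and -0.37 (edgeR adjusted p 0.00381), as did GCLM, the modifier subunit of the first enzyme of glutathione synthesis, at -0.41 (edgeR adjusted p 0.00441) and -0.49 (edgeR adjusted p 0.00148). Of 5 factors known to act on genes of this group, 1 rose and 3 fell in RNA with SH2, and 1 rose and 2 fell with SH3. MYC RNA rose by 0.72 (edgeR adjusted p 8.25e-05) and 0.80 (edgeR adjusted p 5.09e-05). ATF4 RNA changed by -0.34 (edgeR adjusted p 0.0188) and -0.36 (edgeR adjusted p 0.0179), both lower. NFE2L2 fell with SH2 (-0.65, edgeR adjusted p 0.000111) and was not called with SH3 (0.11, edgeR adjusted p 0.391).

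The authors' deposited table holds DESeq2 fold changes for the same genes. RNA directions in the authors' deposited table matched those given here in 10 of 10 transporters for SH2 and in 9 of 10 for SH3, the exception being SLC7A6, near 0 in both. Calls at an adjusted p under 0.05 in the authors' deposited table matched in 10 of 10 for RNA with each hairpin, 10 of 10 for SH3 footprints and 9 of 10 for SH2 footprints, where SLC1A4 was not called by the authors. The 2 blocks of the authors' deposited table for the ratio of footprints to RNA, labelled by hairpin, held identical values in all 17017 genes, so neither was used as a result for SH2 or SH3.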

How the data were processed

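Cytoplasmic input RNA (IN) and ribosome footprints (RPF) of MDA-MB-231 cells were sequenced in 18 libraries, 3 for each of 6 groups. The deposited table holds raw read counts per gene for each library, made by the authors. The submitters' processing notes name Bowtie 1.2.2 and DESeq2; the annotation and the handling of shared reads are not given in the sources used here. The deposited normalized signal columns were the counts divided by a size factor in 18 of 18 columns and were used only for that check. The authors' deposited log2 fold changes and p-values are the output of DESeq2, per the deposited file's name, and are quoted only where named.

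Counts were tested with edgeR 4.0.16 in R 4.3.3 (filterByExpr, TMM, glmQLFit and glmQLFTest, two-sided) in 1 fit over the 9 IN libraries, 1 over the 9 RPF libraries, and 1 over all 18 for translational efficiency (the RPF change minus the IN change). P-values were adjusted by Benjamini-Hochberg over all genes tested and called under 0.05. The script was tested on simulated data. Alternatives were DESeq2 1.42.0's Wald test and size factors, no filter on low counts, only the groups compared, a block by replicate number, a block that takes same-numbered IN and RPF libraries of a treatment to share a lysate (which no label states), RPF libraries thinned to the smallest total, and leaving out each replicate. Same-numbered SC and SH2 libraries deviated together from their group means. The correlations were 0.348 to 0.375 in IN and 0.185 to 0.238 in RPF, each over 0.1. Those of other numbers were -0.335 to -0.0115 and -0.170 to -0.0453. The labels name no shared batch, and for SH3 not every pair was over 0.1. The main fits held no block and the ratio test was unpaired, so the pairing enters only through the block as an alternative. Intervals are at 95%. The ratio of SLC3A2 to light chains was compared by an exact permutation test on log2 values. Replicate libraries differed by more than sampling noise, with a chi-square per degree of freedom of 3.38 to 56.3, so each was counted as 1 sample.

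The members and the gene lists were chosen with earlier results of these data known, and the direction of no list is taken as independent support. Some lists share genes, SESN2 and SLC36A1 among them, so their tallies are not independent of each other. All 10 members are named; from each list at most 3 genes were named, those called in RNA in the same direction with both hairpins, in order of the smaller of both changes. NFE2L2 was named after its values were seen. SLC7A3, SLC7A10, SLC38A3, ASNS and CBS were not analysed here.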

Additional observations from a re-analysis of the deposited data

Results flagged for a closer look

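The direct test of SH2 against SH3 marked 9 transporter changes as different between the hairpins by edgeR's quasi-likelihood test, where the same target was depleted. In RNA these were SLC7A11 (1.02, edgeR adjusted p 4.09e-05) and SLC3A2 (0.48, edgeR adjusted p 0.00347), both higher in SH2. SLC38A2 (-0.76, edgeR adjusted p 0.000413), SLC7A6 (-0.55, edgeR adjusted p 0.00114), SLC7A5 (-0.36, edgeR adjusted p 0.0207) and SLC7A1 (-0.33, edgeR adjusted p 0.0163) were lower in SH2. In footprints SLC7A11 (1.85, edgeR adjusted p 6.2e-06), SLC38A1 (0.95, edgeR adjusted p 0.0014) and SLC6A9 (0.70, edgeR adjusted p 0.00871) were higher in SH2. For SLC7A11 all 3 SH2 libraries lay above all 3 SH3 libraries in RNA and in footprints. FBL RNA stood at 1.26, 4.52 and 11.2 CPM in SH2 and 3.36, 4.15 and 2.95 CPM in SH3, and the part of remaining FBL in these differences was not tested.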

How the results depend on the processing

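Over 90 results (10 transporters, 3 measures, 3 comparisons), 36 were called and 27 of these were called under every alternative. None of the called changes reversed. Shares of all genes called were counted for the main fits alone, so the counts under alternatives have no share beside them. Counts of calls with 1 library left out ranged over 9 to 9, 6 to 7 and 4 to 6 in RNA for SH2 against SC, SH3 against SC and SH2 against SH3, over 3 to 6, 4 to 7 and 3 to 4 in footprints, and over 0 to 1, 0 to 0 and 0 to 0 in translational efficiency. Fitting only the groups compared gave 5 footprint calls for SH2 against SH3 in place of 3, and in efficiency 0 for SH2 against SC and 1 for SH2 against SH3. The DESeq2 Wald test gave 2 efficiency calls for SH2 against SH3. The block that takes same-numbered IN and RPF libraries to share a lysate, which no label states, and thinning of RPF libraries each gave 0 for SH2 against SC. With no filter on low counts and with DESeq2's size factors no count moved by over 1.5 times. Leaving out 1 library moved the log2 footprint ratio of SLC3A2 to light chains over 1.19 to 1.44 with SH2 and 1.37 to 1.63 with SH3. Division by protein length was not run. The cause of these changes was not tested.

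The main fits held no block, and the calls that a replicate block changes are named for SH2 against SC only. With the number as a replicate block, calls were 9, 7 and 7 in RNA and 7, 7 and 5 in footprints for the same 3 comparisons. In efficiency they were 2, 0 and 1. The share of all genes called under the block was not counted, so a general rise in calls cannot be told from one in these genes. For SH2 against SC the block changed no call but those of SLC7A6 and SLC38A1 in footprints and SLC3A2 in efficiency. Same-numbered libraries correlated from -0.133 to 0.313 in IN and -0.0455 to 0.193 in RPF for SC with SH3, and from 0.00578 to 0.478 and -0.0982 to 0.229 for SH2 with SH3.

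Signs changed in 42 values of 19 results, none called, the lowest edgeR adjusted p among them being 0.153. Ranges of the log2 values with 1 library left out were as follows. In RNA, SH3 against SC, values were SLC7A6 -0.089 to 0.048. In RNA, SH2 against SH3, values were SLC1A4 -0.26 to 0.15. In footprints, SH2 against SC, values were SLC7A11 -0.11 to 0.16 and SLC38A2 -0.50 to 0.0092. In footprints, SH3 against SC, values were SLC3A2 -0.052 to 0.32 and SLC38A2 -0.24 to 0.27. In footprints, SH2 against SH3, values were SLC7A1 -0.28 to 0.035 and SLC7A6 -0.11 to 0.27. In efficiency, SH2 against SC, values were SLC7A5 -0.18 to 0.30, SLC7A1 -0.33 to 0.16, SLC7A6 -0.24 to 0.22, SLC1A4 -0.40 to 0.15, SLC1A5 -0.30 to 0.059 and SLC38A2 -0.072 to 0.57. In efficiency, SH3 against SC, values were SLC38A1 -0.26 to 0.21, SLC38A2 -0.56 to 0.088 and SLC6A9 -0.0014 to 0.20. In efficiency, SH2 against SH3, values were SLC3A2 -0.30 to 0.017 and SLC7A1 -0.021 to 0.32. SLC7A6 RNA, SH3 against SC, was -0.026 (DESeq2 size factors in edgeR), -0.026 (DESeq2 Wald test) and -0.033 (only the groups compared). SLC7A11 footprints, SH2 against SC, was -0.13 (RPF libraries thinned to the smallest total). SLC7A6 efficiency, SH2 against SC, was -0.026 (RPF libraries thinned to the smallest total). SLC38A1 efficiency, SH3 against SC, was 0.0022 (with the block that takes a shared lysate). RPF libraries held 1662705 to 6098648 counts, fewer than IN, and the part of this depth in the few efficiency calls was not tested beyond the thinning.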

Other observations

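Carriers inside the cell were counted beside those at its surface. Of 8 lysosomal amino acid transporters tested, 5 rose and none fell in RNA with SH2, and 6 rose and none fell with SH3; in footprints 3 rose with SH2 and 1 with SH3. Over all genes 61.4% were called in RNA with SH2 (31.1% higher) and 53.0% with SH3 (27.8% higher), and 21.0% and 16.9% rose in footprints, so the total called with SH2 is near the share over all genes. SLC38A9, the lysosomal arginine sensor that signals to mTORC1, rose in RNA by 1.02 (edgeR adjusted p 3.53e-05) and 0.96 (edgeR adjusted p 9.89e-05) on the log2 scale, and SLC38A7, a lysosomal glutamine carrier, by 1.00 (edgeR adjusted p 0.000622) and 0.66 (edgeR adjusted p 0.0122). SLC15A3, a lysosomal carrier of histidine and peptides, rose by 0.76 (edgeR adjusted p 0.00155) and 0.70 (edgeR adjusted p 0.00374). Of 10 mitochondrial carriers, 5 rose and 2 fell in RNA with each hairpin, and in footprints 4 rose with SH2, while 1 rose and 1 fell with SH3. SFXN3, a mitochondrial serine carrier, rose in RNA by 1.68 (edgeR adjusted p 3.2e-08) and 1.45 (edgeR adjusted p 2.67e-07), and SLC25A22, a glutamate carrier, by 0.78 (edgeR adjusted p 0.000171) and 0.85 (edgeR adjusted p 0.000131).

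Of 17 amino acid synthesis enzymes, 6 rose and 7 fell in RNA with SH2, and 2 rose and 6 fell with SH3; in footprints 1 rose and 8 fell with SH2, and none rose and 7 fell with SH3. PHGDH, PSAT1, PSPH and CTH are also among the starvation response genes, so the tallies of these lists share genes. Over all genes 30.4% and 25.2% fell in RNA with SH2 and SH3, and 23.2% and 19.0% in footprints. PHGDH and PSAT1, which act in succession in serine synthesis, were lower in footprints with both hairpins, PHGDH at -2.27 (edgeR adjusted p 2.55e-06) and -1.08 (edgeR adjusted p 0.00129) and PSAT1 at -0.97 (edgeR adjusted p 0.000194) and -1.37 (edgeR adjusted p 2.3e-05). ASS1, of arginine synthesis, was at -0.83 (edgeR adjusted p 0.00722) and -1.11 (edgeR adjusted p 0.00246). Of 18 genes of amino acid sensing by mTORC1, 4 rose and 4 fell in RNA with SH2, and 7 rose and 4 fell with SH3, beside the same shares over all genes. In translational efficiency with SH2, 5 of the 15 starvation response genes were called, all lower, where 3.90% of all genes were called and 2.46% were lower, ATF3 (-1.53, edgeR adjusted p 0.0167) and SESN2 (-1.14, edgeR adjusted p 0.0228) among them; with SH3 edgeR called none of the 15.

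In the authors' deposited table the footprint to RNA ratio of SLC38A1 carries a log2 fold change of -0.021 and an adjusted p of 0.00519 in the SH2 block and the same values in the SH3 block. Across 14348 genes the log2 fold changes of those blocks in the authors' deposited table correlated with that table's own footprint change minus RNA change at a Pearson r of 0.513 for SH2 and 0.982 for SH3, as a description over genes, which are not independent replicates.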
